A study of Mus musculus with 2 samples.

Results

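The Ikaros family is a group of zinc finger transcription factors of blood cells, and its 5 genes, Ikzf1 to Ikzf5, were followed here in RNA-seq libraries labelled as mouse megakaryocyte-erythroid progenitors (MEP). The genes were chosen by name, as listed members of the family, and are 5 of the 43346 annotated genes that were quantified. The files hold 32 transcripts for them. MEP are bone marrow progenitors of red cells and of megakaryocytes, the cells that shed platelets. The libraries came from primary cells of adult female C57BL/6J mice aged 5 weeks. A label describes the cells by lineage markers with CD16/32 and as CD34-. The 2 libraries are biological replicates of a single group, from separate biosamples that carry the same donor identifier, so no conditions can be compared and the spread between the libraries may be technical. Poly(A) RNA was read as paired ends, with a total of 79539457 estimated counts over annotated genes in replicate 1 and 65305321 in replicate 2.

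Markers went partly against the label. All 13 granulocyte and monocyte markers were detected in both libraries, and their levels summed to 32926 TPM in replicate 1 and 19127 TPM in replicate 2. TPM is transcript abundance corrected for length and scaled to 1000000 per library. The 12 erythroid markers summed to 691 and 833 TPM and the 12 megakaryocyte markers to 239 and 410 TPM. Of each of these lists 9 were detected, where 46.9% of protein-coding genes were. Mpo, Elane and Prtn3 made up most of the granulocyte and monocyte sum, at 10136, 8624 and 10600 TPM in replicate 1. List medians were 336 and 337 TPM for granulocyte and monocyte markers. They were 32.1 and 39.6 TPM for erythroid and 6.785 and 12.7 TPM for megakaryocyte markers. Cd34, whose protein the gate excludes, was at 69.1 and 91.9 TPM. Levels below are therefore those of the libraries labelled MEP, and in such bulk samples fewer cells of a type and less RNA per cell cannot be told apart.

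Ikaros family proteins bind DNA through a cluster of zinc fingers in their N-terminal part, and pair with themselves and with each other through a second cluster at the C-terminus. They bring the NuRD complex, a chromatin remodeller with histone deacetylase activity, to their targets. Ikzf1 encodes Ikaros itself, which mice need to make B cells and which is present from stem cells onward. Ikzf2 encodes Helios, known from stem cells and regulatory T cells. Ikzf3 encodes Aiolos, a factor of maturing B cells, Ikzf4 encodes Eos, a partner of Foxp3 in regulatory T cells, and Ikzf5 encodes Pegasus, the most divergent member. Alternative splicing of Ikzf1 gives proteins with fewer N-terminal fingers, and those that keep the C-terminal cluster but bind DNA poorly can block the others.

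The exon layout that the transcripts vary in was shared by the first 4 genes. In GENCODE M21 on GRCm38, Ikzf1-204, Ikzf2-201, Ikzf3-201 and Ikzf4-201 each have 8 exons and encode 6 fingers. Fingers were found as the pattern Cys-2-Cys-12-His followed after 3 to 5 residues by His or Cys. Finger 1 lies in exon 4 (261, 267, 258 and 261 bases), fingers 2 and 3 in exon 5, finger 4 in exon 6, and fingers 5 and 6, the pairing cluster, in the final exon. The proteins have 515, 526, 507 and 586 residues. Ikzf5-201 has 4 exons and encodes 5 fingers in 419 residues, with finger 1 in exon 3 and the other 4 in the final exon. Exon 5 is 168 bases long in all 4 genes. It is shown here because it carries the core of DNA binding, and the capitals mark the codons of the cysteines and histidines of fingers 2 and 3.
Ikzf1 exon 5, chr11:11754007-11754174, plus strand: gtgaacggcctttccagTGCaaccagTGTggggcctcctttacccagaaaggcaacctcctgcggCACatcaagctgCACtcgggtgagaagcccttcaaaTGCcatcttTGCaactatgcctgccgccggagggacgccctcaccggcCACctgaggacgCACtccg
Ikzf2 exon 5, chr1:69570493-69570660, minus strand: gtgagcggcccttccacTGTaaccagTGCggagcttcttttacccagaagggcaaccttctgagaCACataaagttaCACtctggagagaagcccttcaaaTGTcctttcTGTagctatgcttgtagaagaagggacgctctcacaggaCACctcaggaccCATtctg
Ikzf3 exon 5, chr11:98488852-98489019, minus strand: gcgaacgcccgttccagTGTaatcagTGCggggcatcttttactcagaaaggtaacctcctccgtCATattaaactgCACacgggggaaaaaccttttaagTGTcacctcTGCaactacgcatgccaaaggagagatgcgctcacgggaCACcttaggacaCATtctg
Ikzf4 exon 5, chr10:128640141-128640308, minus strand: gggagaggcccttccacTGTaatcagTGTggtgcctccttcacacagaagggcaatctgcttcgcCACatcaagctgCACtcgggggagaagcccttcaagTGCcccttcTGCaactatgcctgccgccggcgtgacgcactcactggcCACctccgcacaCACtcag

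Compared base by base without gaps, these exons were identical at 82.1% of positions between Ikzf1 and Ikzf4, 78.6% between Ikzf1 and Ikzf2 and 76.8% between Ikzf1 and Ikzf3. Ikzf2 and Ikzf4 shared 76.2%, and Ikzf3 shared 73.2% with Ikzf2 and with Ikzf4. Ikzf5 has no exon of this kind. Its exon 3, the first with a finger, has 183 bases and is shown with the same marking.
Ikzf5 exon 3, chr7:131393755-131393937, minus strand: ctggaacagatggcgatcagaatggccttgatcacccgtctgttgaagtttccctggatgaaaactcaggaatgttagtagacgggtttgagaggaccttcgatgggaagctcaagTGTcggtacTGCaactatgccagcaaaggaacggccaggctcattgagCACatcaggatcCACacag

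Ikzf1 dominated the family at the mRNA level. Ikzf1 (ENSMUSG00000018654.13, chr11:11685003-11772926, plus strand) had 253 TPM in replicate 1 and 284 TPM in replicate 2, a mean of 269 ± 21.7 (SD, n = 2). The authors' intervals, which cover quantification error within 1 library, ran from 245 to 256 and from 274 to 286 TPM. It ranked 598th and 541st among 21474 protein-coding genes. Its share of the family's TPM was 95.0% and 92.4%, and its share of the family's estimated counts, 21232 and 19922 in number, was 88.4% and 87.9%.

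Ikzf5 and Ikzf2 lay far below Ikzf1 but were detected, where detection means at least 1 TPM in both libraries. Ikzf5 (ENSMUSG00000040167.11, chr7:131388652-131410521, minus strand) had 8.77 and 12.1 TPM, a mean of 10.5 ± 2.38 (SD, n = 2), from 2259 and 2077 estimated counts. Ikzf2 (ENSMUSG00000025997.9, chr1:69531214-69687245, minus strand) had 3.53 TPM in replicate 1 and 10.3 TPM in replicate 2, a mean of 6.93 ± 4.81 (SD, n = 2), from 304 and 526 estimated counts. Replicate 2 was the higher library for both genes.

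Ikzf3 and Ikzf4 stayed below that level. Ikzf3 (ENSMUSG00000018168.8, chr11:98464902-98546031, minus strand) had 0.85 and 0.81 TPM, a mean of 0.83 ± 0.0283 (SD, n = 2), from 210 and 107 estimated counts. Ikzf4 (ENSMUSG00000002578.11, chr10:128630843-128645991, minus strand) had 0.13 and 0.15 TPM, a mean of 0.14 ± 0.0141 (SD, n = 2), from 24 and 25 estimated counts. For Ikzf4 the TPM lay below its own interval in each library (0.171 to 0.652 and 0.199 to 0.832 TPM), and the authors' posterior mean was 0.39 and 0.49 TPM. The family thus had 3 of 5 members detected, where 46.9% of protein-coding genes and 24.7% of all annotated genes were.

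**Figure D1:**
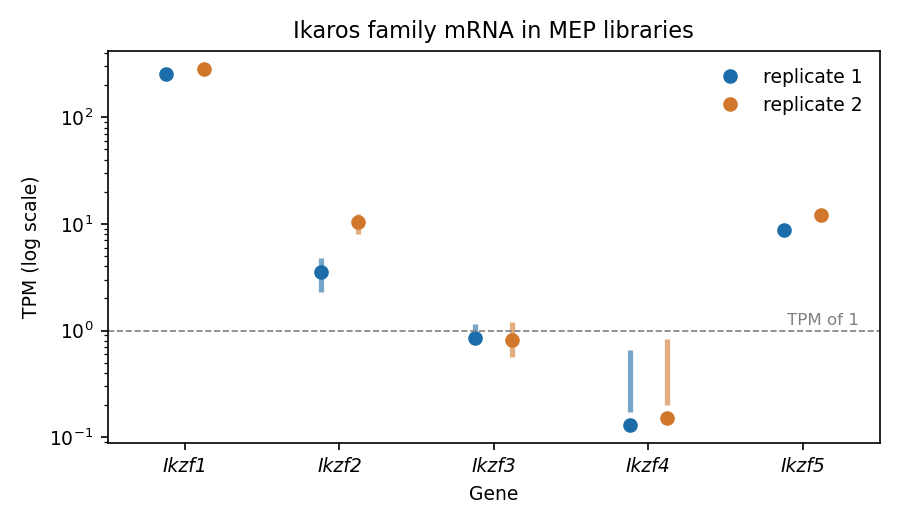
TPM of the 5 Ikaros family genes on a log axis in each of the 2 libraries. Points are the deposited TPM values, bars the authors' intervals within 1 library, and the dashed line a TPM of 1; Ikzf1 stood at 253 and 284 TPM, Ikzf5 and Ikzf2 between 3.53 and 12.1 TPM, and Ikzf3 and Ikzf4 under 1 TPM.

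The order of the levels was Ikzf1, Ikzf5, Ikzf2, Ikzf3 and Ikzf4, and 2 pairs of neighbours in it did not separate. A pair was called where the higher gene was the same in both libraries, the mean log2 ratio exceeded 1 and the intervals were separate in each, which held for 8 of 10 pairs. Ikzf1 was 26.0-fold above Ikzf5 (mean log2 ratio of 4.70 ± 0.21, SD, n = 2) and 44.3-fold above Ikzf2 (5.47 ± 0.98). For Ikzf2 the log2 ratio was 6.16 in replicate 1 and 4.78 in replicate 2. Ikzf1 was 319-fold above Ikzf3 and 1792-fold above Ikzf4. The last value rests on Ikzf4 TPM values outside their own intervals, and by posterior mean TPM it was 592-fold. Ikzf5 and Ikzf2 were not called, with a log2 ratio of 1.31 in replicate 1 and 0.23 in replicate 2. Ikzf3 exceeded Ikzf4 by 5.61-fold, or 2.08-fold by posterior mean TPM, but their intervals overlapped in replicate 2. With 2 libraries the smallest p of an exact sign test, two-sided, is 0.5, so these levels were not tested.

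Transcripts of Ikzf1 divided over forms that differ in both finger clusters. All 6 annotated transcripts had counts in both libraries. IsoPct, the share of a gene's TPM held by a transcript, was 53.4% in replicate 1 and 50.3% in replicate 2 for Ikzf1-202 (51.9% ± 2.20, SD, n = 2). It was 27.2% and 31.4% for Ikzf1-201 (29.3% ± 3.01). Ikzf1-203 held 8.81% and 9.95% (9.38% ± 0.806), and Ikzf1-204, the transcript shown above with 8 exons, held 1.18% and 0.76%. The short Ikzf1-206 and Ikzf1-205, annotated as incomplete at the 3′ end, held 7.84% and 5.95%, and 1.58% and 1.62%. Ikzf1-201 and Ikzf1-206 have no base of their own, so their shares depend on how the authors' estimate divided reads that fit several forms.

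**Figure D2:**
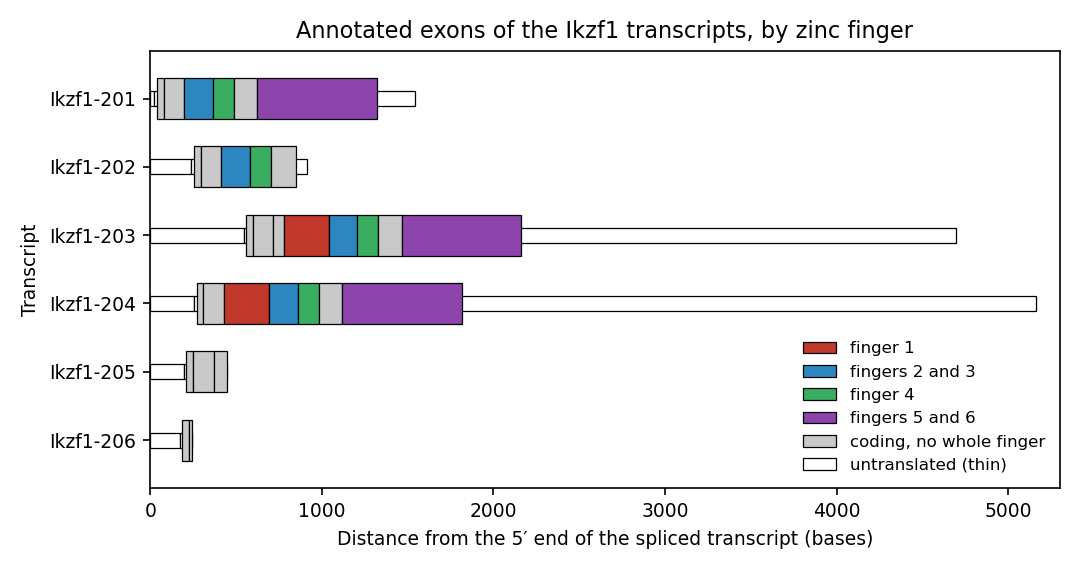
Spliced Ikzf1 transcripts drawn to scale in bases from the 5′ end, with coding parts thick and coloured by the zinc fingers they encode. Only Ikzf1-203 and Ikzf1-204 hold the finger 1 exon, and Ikzf1-202 ends before the exon of fingers 5 and 6.

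The finger 1 exon was present in Ikzf1-203 and Ikzf1-204 alone. It has 261 bases, a multiple of 3, so skipping it keeps the reading frame. It is shown because it separates the 6-finger forms from Ikzf1-201, which has 5 fingers. The form without finger 1 corresponds to the isoform known as Ik-2. Ikzf1-203 carries a further coding exon of 60 bases just before it, which holds no finger. In the finger 1 exon the capitals mark the cysteine and histidine codons.
Ikzf1 finger 1 exon, chr11:11748311-11748571, plus strand: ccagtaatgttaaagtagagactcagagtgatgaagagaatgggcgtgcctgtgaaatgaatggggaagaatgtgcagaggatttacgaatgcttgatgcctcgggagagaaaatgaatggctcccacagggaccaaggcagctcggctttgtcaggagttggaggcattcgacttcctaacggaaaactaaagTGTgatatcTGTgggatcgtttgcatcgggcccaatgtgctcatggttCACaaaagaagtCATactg
Ikzf1 extra coding exon, chr11:11740950-11741009, plus strand: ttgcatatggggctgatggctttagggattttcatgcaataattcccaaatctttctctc

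The 2 transcripts with finger 1 held 9.99% of Ikzf1 TPM in replicate 1 and 10.7% in replicate 2 (10.4% ± 0.509, SD, n = 2). They stood at 25.3 and 30.4 TPM, above the other 4 family members summed, which came to 13.3 and 23.4 TPM. A further 9.42% and 7.57% of Ikzf1 TPM lay in the 2 transcripts incomplete at the 3′ end, for which finger 1 is not known. Among the 3 transcripts that reach the final coding exon, those with finger 1 held 26.9% and 25.4% of TPM, but 54.7% and 52.8% of estimated counts. Each share lay close together in the libraries. The final exon is annotated with 918 bases in Ikzf1-201, 3232 in Ikzf1-203 and 4046 in Ikzf1-204. Of these 3 transcripts, reads past the shortest end fit only those with finger 1. The shares therefore depend on the annotated ends as well as on the finger 1 exon.

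Ikzf1-202, the leading transcript by TPM, encodes fingers 2, 3 and 4 and neither finger 1 nor the C-terminal cluster. It runs on past the end of exon 7 of Ikzf1-204, at base 11761353 of chromosome 11, for 71 bases up to 11761424. Of these 71 bases, which no other Ikzf1 transcript in the files holds, 8 are coding and a stop codon follows. Ikzf1-201, Ikzf1-203 and Ikzf1-204 join that exon to the final exon, which begins at 11768881. Both ends are shown with 30 bases of the shared exon in lower case and the 11 bases that follow in capitals.
Ikzf1-202, chr11:11761324-11761364, plus strand: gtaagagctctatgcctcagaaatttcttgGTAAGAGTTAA
Ikzf1-201, chr11:11761324-11761353 joined to chr11:11768881-11768891, plus strand: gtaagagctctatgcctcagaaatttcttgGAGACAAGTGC

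The sequence that is only in Ikzf1-202 begins with the GT of the intron that Ikzf1-201 removes. Reads over it from RNA that was not spliced there cannot be told apart from reads of Ikzf1-202 in these tables.

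Shares of counts ordered the Ikzf1 transcripts otherwise than shares of TPM. Ikzf1-202 has 911 bases, Ikzf1-201 has 1542 and Ikzf1-203 has 4697, so equal counts give the shorter ones more TPM. Ikzf1-202 took 32.5% and 29.1% of the gene's estimated counts, Ikzf1-201 took 30.1% and 33.1%, and Ikzf1-203 took 31.7% and 34.1%. By counts Ikzf1-202 led in replicate 1 and Ikzf1-203 in replicate 2. The 2 transcripts with finger 1 held 36.4% and 37.0% of counts (36.7% ± 0.462, SD, n = 2).

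**Figure D3:**
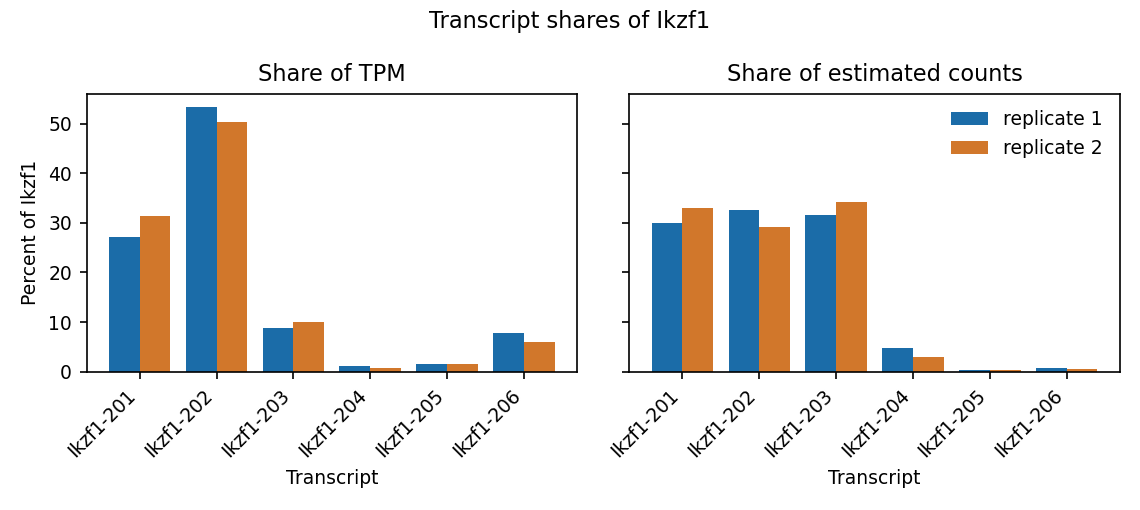
Percent of Ikzf1 held by each of its 6 transcripts in each library, as a share of TPM in the left panel and of estimated counts in the right panel. Ikzf1-202 led by TPM at 53.4% and 50.3%, while by counts Ikzf1-201, Ikzf1-202 and Ikzf1-203 each held between 29.1% and 34.1%.

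Ikzf2 TPM rested mostly on a fragment of the gene. Ikzf2-206, a transcript of 361 bases annotated as incomplete at the 3′ end and encoding no finger, held 76.6% of Ikzf2 TPM in replicate 1 and 81.1% in replicate 2. It did so with 39.6 and 95.9 estimated counts, which were 13.0% and 18.2% of the gene's counts. Only 49 of its bases are in no other Ikzf2 transcript of the files. Ikzf2 as a gene had 3.53 and 10.3 TPM. Its 6 complete coding transcripts summed to 0.83 TPM in replicate 1, below the 1 TPM of detection, and to 1.92 TPM in replicate 2. Among them Ikzf2-201, with all 6 fingers, had 0.38 and 0.70 TPM from 227 and 338 estimated counts. The 5-finger Ikzf2-208 had 0.44 TPM in replicate 1 and was listed at 0 in replicate 2, and the 4-finger Ikzf2-204 was listed at 0 in replicate 1 and had 1.04 TPM in replicate 2. Neither of these last transcripts has a base of its own, and their intervals overlapped between libraries.

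Ikzf5 was led by its full form. Ikzf5-201 had 7.18 and 6.83 TPM, with overlapping intervals, and held 81.9% and 56.3% of the gene. Ikzf5-202, which encodes 3 of the 5 fingers, had 1.59 TPM in replicate 1 and 4.60 TPM in replicate 2, with separate intervals (0.948 to 2.27 and 3.58 to 5.20 TPM). The difference of Ikzf5 between the libraries in TPM was thus mostly in Ikzf5-202. That transcript has no base of its own, so its share depends on how the authors' estimate divided reads that fit both forms.

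For the members under 1 TPM, transcript shares rested on few counts. Ikzf3-201, with 6 fingers, held 75.6% and 49.4% of Ikzf3 TPM from 149 and 74.4 estimated counts. Ikzf3-203, a retained intron with no coding sequence, held 24.4% and 12.5%, and Ikzf3-204, annotated as a processed transcript, was listed at 0 in replicate 1 and held 38.1% in replicate 2 from 8.58 estimated counts. Of the 8 Ikzf4 transcripts only Ikzf4-201 was matched to the annotation used, and it had 11.1 and 22.7 estimated counts. The same transcript led in both libraries for 4 of 5 members, Ikzf4 being the other. Among detected genes with more than 1 transcript, 87.6% of 7707 kept their leading transcript, as did the 3 detected members.

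Between the libraries Ikzf2 was the member that stood apart. Genes with a mean of at least 5 TPM were called apart where the difference in log2 CPM, counts per 1000000 after TMM scaling, exceeded 2-fold and the TPM intervals were separate. Of 8000 such genes 1.64% were apart, 1.1% higher in replicate 1 and 0.537% higher in replicate 2. Ikzf2 was the 1 of 3 tested members that was. Its mean of 6.93 TPM reached the level of 5 TPM through replicate 2 alone, at 10.3 TPM against 3.53 TPM in replicate 1. It had 3.82 estimated counts per 1000000 of the library total in replicate 1 and 8.05 in replicate 2, both before TMM scaling. After that scaling its log2 CPM difference, replicate 1 minus replicate 2, was -1.01, just past the limit of 2-fold, and on the TPM scale it was -1.55. The effective length of the gene, which depends on the transcript mix, was 1301 bases in replicate 1 and 963 bases in replicate 2. Both Ikzf2-201 (0.319 to 0.424 and 0.611 to 0.772 TPM) and Ikzf2-206 (1.28 to 3.92 and 5.95 to 10.6 TPM) had separate intervals, higher in replicate 2.

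Ikzf1 and Ikzf5 differed little in counts. The log2 CPM difference was -0.13 for Ikzf1 and -0.10 for Ikzf5, where the median size over the 8000 genes was 0.20 and the 95th percentile 0.73. On the TPM scale it was -0.16 and -0.47. Ikzf3, below the level for a call, had 2.64 counts per 1000000 in replicate 1 and 1.64 in replicate 2, again before TMM scaling, with overlapping TPM intervals. Ikzf4 had 0.302 and 0.383. With 1 library against 1, none of these differences has a replicate check.

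Marker lists leaned to one library or the other, mostly by less than 2-fold. Over all 8000 genes with a mean of at least 5 TPM, 53.1% were higher in replicate 1. All 7 stem and multipotent progenitor markers with a mean of at least 5 TPM were higher in replicate 2 by log2 CPM, the scale of the counts given for each list. Among them were Flt3, a receptor of multipotent and lymphoid progenitors, at 15.4 and 33.4 TPM, and Meis1, a stem cell factor, at 45.1 and 82.1 TPM. Mllt3 had a log2 CPM difference of only -0.06 and went the other way in TPM, at 8.95 and 6.59 TPM. Of these 7 only Flt3 stood apart. The list of 10 summed to 286 TPM in replicate 1 and 429 TPM in replicate 2. All 9 megakaryocyte markers at that level were also higher in replicate 2, with Thbs1, of platelet granules, the 1 that stood apart, and Gp6 was at 0 counts in both. Of these 9, Gp1ba reached a mean of 5 TPM through replicate 2 alone, at 3.57 TPM in replicate 1 and 6.65 TPM in replicate 2. Erythroid markers were higher there in 6 of 7 cases and 0 of them stood apart. Ikzf2 shared this direction, and the part of these cell types in its difference was not tested.

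Markers of B cells leaned the other way. All 6 at a mean of at least 5 TPM were higher in replicate 1, with Cd79a and Pax5 apart, and the list of 12 summed to 109 TPM in replicate 1 and 53.1 TPM in replicate 2. Cd79a, of the B cell receptor, was at 32.3 and 11.7 TPM, and Ms4a1 and Cr2, of mature B cells, at 0.12 TPM or less, Cr2 with no counts. Granulocyte and monocyte markers were higher in replicate 1 in 12 of 13 cases, with Elane and Prtn3, of neutrophil granules, apart. The exception was Camp, at 819 TPM in replicate 1 and 1035 TPM in replicate 2. Ngp (336 and 352 TPM) and S100a9 (316 and 337 TPM) had log2 CPM differences of only 0.04 and 0.03, and in TPM both were higher in replicate 2. T and NK cell markers had 4 of 13 detected, where 46.9% of protein-coding genes were, and summed to 53.3 and 34.4 TPM. Of the 3 at a mean of at least 5 TPM, 2 were higher in replicate 1, with Nkg7 apart. Nkg7, at 34.3 and 17.3 TPM, made up most of the sum in replicate 1. Ikzf3 counts shared the direction of the B cell markers and of the granulocyte and monocyte markers, while its TPM was near even at 0.85 and 0.81. The part of these cell types in the Ikzf3 counts was not tested.

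**Figure D4:**
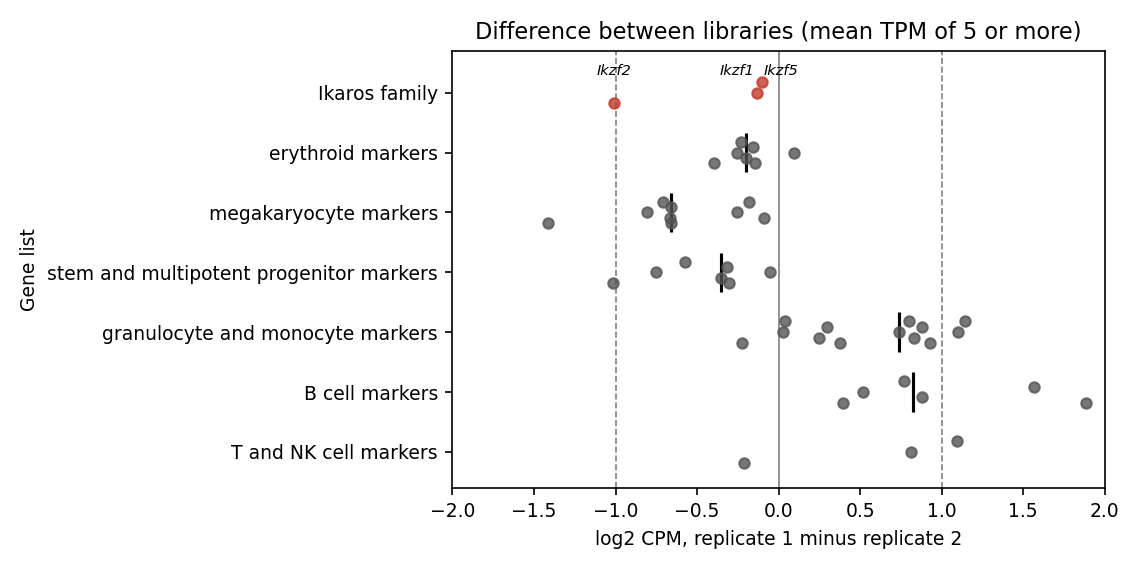
Difference in log2 CPM, replicate 1 minus replicate 2, of the family members and marker genes with a mean of at least 5 TPM. Each point is a gene, black bars are medians of lists with over 5 such genes and dashed lines mark 2-fold; Ikzf2 lay at -1.01, on the side of the megakaryocyte and stem markers, and Ikzf1 and Ikzf5 at -0.13 and -0.10.

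The corepressor partners of Ikaros were present at high levels. All 13 NuRD subunits were detected, where 46.9% of protein-coding genes were, with a median of 90.9 TPM in replicate 1 and 121 TPM in replicate 2. The median over all protein-coding genes, with those not detected included, was 0.67 and 0.75 TPM. Mta1 (260 and 327 TPM), Mbd3 (239 and 278 TPM) and the remodelling ATPase genes Chd4 (152 and 227 TPM) and Chd3 (149 and 202 TPM) were highest. Chd4 protein is the Mi-2 beta subunit that Ikaros was found with in lymphocytes. The lowest were Gatad2b, a scaffold subunit, at 3.62 and 4.22 TPM, and the deacetylase gene Hdac2 at 37.4 and 42.7 TPM. No NuRD subunit stood apart between the libraries, where 1.64% of the 8000 genes at a mean of at least 5 TPM did. Of the 12 subunits at that level 10 were higher in replicate 2, where 3749 of the 8000 genes were. The differences were small, with a median log2 CPM difference of -0.14, where the median size over the 8000 genes was 0.20.

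The 5 other corepressor genes were also all detected, where 46.9% of protein-coding genes were. Smarca4, the ATPase of the SWI/SNF remodeller, was at 231 and 252 TPM, and Ctbp1, a corepressor that binds Ikaros directly, at 218 and 239 TPM. Ctbp2 followed at 70.9 and 70.1 TPM, and the Sin3 scaffold gene Sin3a was lowest at 17.2 and 12.4 TPM. Their log2 CPM differences lay within 2-fold.

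Regulators of the Ikaros protein were detected with 1 exception, where 46.9% of protein-coding genes were detected. Casein kinase 2, which phosphorylates Ikaros and lowers its DNA binding, and protein phosphatase 1, which reverses this, had all 6 genes detected. The phosphatase gene Ppp1ca was highest at 534 and 562 TPM, and the kinase genes Csnk2a1 (9.87 and 9.65 TPM) and Csnk2a2 (5.66 and 5.95 TPM) were lowest, with the regulatory subunit gene Csnk2b at 78.7 and 78.6 TPM. Of the 5 genes of the cereblon ubiquitin ligase, which in human cells degrades Ikaros and Aiolos when bound by thalidomide analogs, 4 were detected. Crbn, the substrate receptor, was at 2.24 TPM in replicate 1 and 0.96 TPM in replicate 2, while Cul4a had 27.0 and 32.1 TPM, and Rbx1 and Ddb1 between 13.4 and 14.5 TPM.

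**Figure D5:**
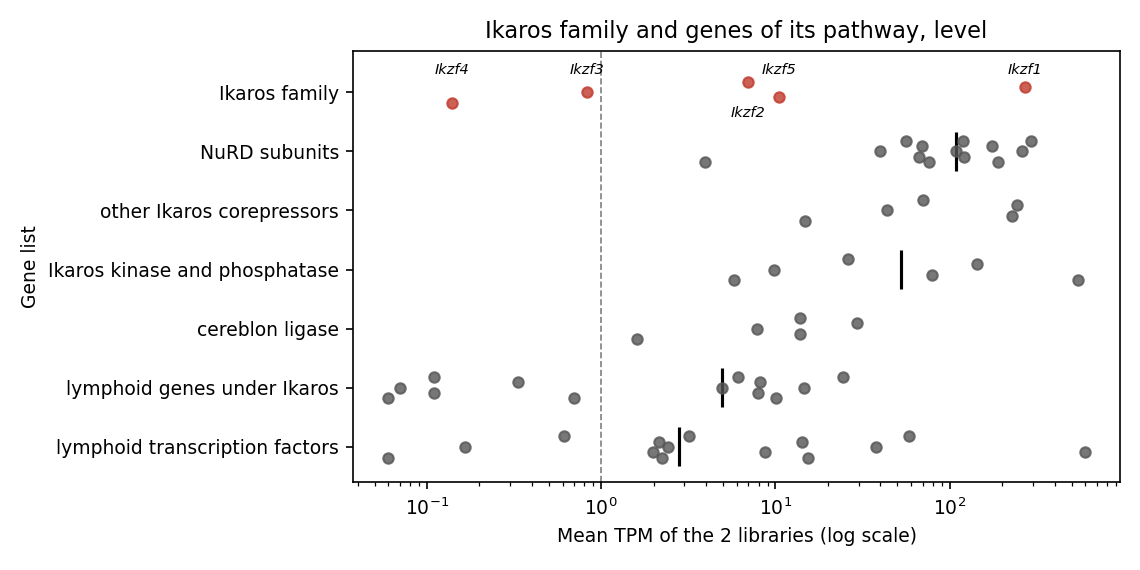
Mean TPM of the 2 libraries on a log axis for the family members and for genes of 6 lists of partners, regulators and lymphoid genes. Each point is a gene, black bars are medians of lists with over 5 genes and the dashed line marks 1 TPM; NuRD subunits lay between 3.92 and 293 TPM, and the lymphoid genes that Ikaros is known to regulate between 0.06 and 24.4 TPM.

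Of 13 lymphoid genes that Ikaros is known to regulate 7 were detected, where 46.9% of protein-coding genes were. The median of all 13 was 3.71 and 3.60 TPM. Flt3 was highest, followed by the surrogate light chain genes Igll1 (16.7 and 12.5 TPM) and Vpreb1 (12.4 and 7.84 TPM) of early B cells and by Cd79b (10.3 and 5.98 TPM). The recombinase gene Rag1 was at 0.09 and 0.03 TPM and the T cell gene Cd8a at 0.13 and 0.01 TPM. Dntt, the polymerase that adds bases at antigen receptor joints, was at 3.71 TPM in replicate 1 and 8.48 TPM in replicate 2, a log2 CPM difference of -1.09, and Dntt and Flt3 were the 2 members that stood apart, both higher in replicate 2. The mean of Dntt reached 5 TPM through replicate 2 alone. Igll1, Vpreb1 and Cd79b had the opposite direction, so the list did not move as one.

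Lymphoid transcription factors had 11 of 14 genes detected, where 46.9% of protein-coding genes were, at a median of 2.97 and 3.09 TPM. At a threshold of 5 TPM 6 of them were detected. The E protein genes Tcf3 (566 and 627 TPM) and Tcf12 (26.3 and 49.1 TPM) were among the highest. Foxp3, the partner of Eos, was at 0.11 and 0.01 TPM. Pax5, the B cell identity factor, was the 1 member apart, at 24.5 TPM in replicate 1 and 6.19 TPM in replicate 2 (log2 CPM difference of 1.89). Several genes of both lymphoid lists are also B cell or stem cell markers above, so the lists are not independent.

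Other annotated genes took few reads over the family. Within the spans of the members, Gm11999 and Gm12000 at Ikzf1, Gm25106 at Ikzf3 and Fgfr2 at Ikzf5 had no counts. Gm28112, Gm29112 and Gm29114 at Ikzf2 and Gm26876 at Ikzf4 had at most 5 estimated counts in a library. Pstk, a kinase gene of selenocysteine tRNA on the strand opposite to Ikzf5, had 19.2 and 17.7 TPM, but the Pstk transcripts in the files share 0 exonic bases with those of Ikzf5. Whether the authors' counting used strand is not stated in the labels or file headers.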

How the data were processed

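RNA-seq of 2 libraries labelled MEP was analysed, without conditions. Selection was for poly(A), per the labels, and the text deposited beside the tables gives mm10 with GENCODE M4. How reads were aligned, quantified and assigned to strands is not given in sources used here; columns carry RSEM's names. Genes and transcripts each have an expected count from the authors, per the file headers. The deposited TPM and FPKM values correct for effective length, and the deposited percent column (IsoPct) gives a transcript's share of its gene. The bounds of the authors' TPM intervals, deposited as a score of unstated level, belong to the posterior mean.

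Of 43346 gene identifiers 42462 matched GENCODE M21 (GRCm38), which gave symbols, exons and sequences, and 884 did not. Of the member transcripts 25 of 32 matched, 24 with the same length. A further 26345 rows naming no annotated gene held 1 count in replicate 1 and 0 in replicate 2 and stayed out of totals. Expected counts were rounded to whole numbers for TMM scaling with edgeR 4.0.16 (R 4.3.3; factors 0.98 and 1.02 over 13546 genes, prior count 2 for log2 CPM); DESeq2 1.42.0 gave alternative size factors. The scaling step was tested on simulated data. Ratios of TPM used a pseudocount of 0.01. Other steps used Python 3.11.15, numpy 2.4.6, pandas 2.3.3 and matplotlib 3.10.9.

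Members, gene lists and call rules were chosen with earlier results of these data known. The text may name all members, of each partner or lymphoid list the 4 highest and 2 lowest by mean TPM and the 2 farthest apart between libraries at a mean of 5 TPM or more, any marker and genes overlapping a member. Genes of like pattern are not named, since 2 libraries of 1 group hold no pattern. Alternatives changed the threshold, unit, scaling, pseudocount or transcripts counted, or left out 1 library. No molecular identifiers are mentioned, and the TPM intervals cover error within a library only. Values of some listed genes are not reported here.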

Additional observations from a re-analysis of the deposited data

How the results depend on the processing

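The count of members detected was 4 at a threshold of 0.5 TPM, with Ikzf3 added, and 2 at 5 TPM, where Ikzf2 failed in replicate 1; it was 3 by posterior mean TPM, by FPKM and in each library alone. Of 10 pairs, 8 were called under every alternative except without the interval condition (9) and without replicate 2 (10), so leaving out a library gave 8 to 10. Ikzf2 was the 1 member apart with DESeq2 size factors (log2 difference of -1.01), with log2 TPM (-1.55), without the TPM filter and without the interval condition. Posterior means moved Ikzf4 to 0.44 TPM. The mean TPM of Ikzf2, 6.93, was 10.3 without replicate 1 and 3.53 without replicate 2. The count of members with the same leading transcript in both libraries was 4 by posterior mean, 3 by counts, where Ikzf1 changed its leader and Ikzf2-201 led Ikzf2, and 5 among protein-coding transcripts, where Ikzf4-201 was the 1 Ikzf4 transcript with a known type, so its agreement was fixed. Without transcripts annotated as incomplete, an alternative chosen after seeing the data, it was 3, with Ikzf2-208 leading in replicate 1 and Ikzf2-204 in replicate 2. Of 36 recounts of detected list genes, 35 stayed within 1.5 times; at 5 TPM 6 lymphoid transcription factors were detected in place of 11, since 5 lie between both thresholds. Leaving out a library gave 7 to 8 lymphoid genes under Ikaros, 4 to 5 cereblon ligase genes, 9 to 10 erythroid and 8 to 9 B cell markers, and changed no other list. Scaled to protein-coding genes without ribosomal protein and mitochondrial genes, Ikzf1 averaged 368 TPM and Ikzf3 1.14 TPM, above the detection level. No paired analysis was possible because there is 1 group. Depth limits Ikzf4, with 24 and 25 counts, and the minor transcripts of Ikzf2 and Ikzf3.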
